A study of Mus musculus with 19 samples.

Results

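The 10 genes described here encode proteins that carry amino acids across the plasma membrane, or the heavy chains that bring such carriers to it. They were chosen as a fixed set of symbols, Slc38a1, Slc38a2, Slc38a3, Slc38a4, Slc7a2, Slc16a10, Slc43a1, Slc3a2, Slc3a1 and Slc6a9, found in the authors' deposited comparison tables and joined to the counts by gene identifier. The choice was made with earlier results of these data known. All 10 were among the 14319 genes with counts in every library, and all 10 passed the filter on low counts that left 12493 genes for testing. Livers came from 19 adult mice labelled as random fed, in 4 groups. Every mouse carried ROSA26 ChR2 fl/wt, an allele from which Cre recombinase switches on the light-gated channel channelrhodopsin-2. Mice called tg were AgRP-IRES-Cre tg/wt, with Cre driven by the gene of agouti-related peptide, a marker of hunger-promoting neurons of the hypothalamus. Mice called wt were AgRP-IRES-Cre wt/wt and had no Cre. Both genotypes had an optic fibre above the arcuate nucleus and received pulses of 473 nm light, each of 10 ms, delivered at 20 Hz in bouts of 3 s separated by 1 s. Light began at zeitgeber time (ZT) 5.5 and ran for 2 h, or began at ZT 3.5 and ran for 4 h, with food removed, and all livers were taken at ZT 7.5. The groups held 5 wt and 4 tg mice at 2 h, and 5 wt and 5 tg mice at 4 h. No tg mice without light were analysed here, so excitation of the neurons cannot be told apart from carrying Cre, and the genotype given by the labels was not checked against any RNA, since AgRP is not analysed here.

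Hepatocytes take up amino acids from portal and systemic blood for protein synthesis, urea production and gluconeogenesis. System A carriers move small neutral amino acids such as alanine into the cell together with sodium, and Slc38a2 is the classic regulated member, known to be induced by hormones and by lack of amino acids in cultured cells. System N carriers move glutamine, asparagine and histidine in either direction, while the carriers of cationic and aromatic amino acids are facilitative. Slc3a1 and Slc3a2 transport nothing by themselves and act as partners of light chains of the Slc7 family.

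Sequences of 250 bases before the transcription start are printed for the Slc38 gene whose RNA differed most between genotypes, for Slc16a10, and for the outermost start of Slc38a4, the abundant Slc38 neighbour. They come from RefSeq, build GRCm38.p6, and read 5′ to 3′ on the minus strand, on which all 3 genes lie. The intervals are chr15:96699729-96699978 for Slc38a2, chr10:40142255-40142504 for Slc16a10 and chr15:97055957-97056206 for Slc38a4. Capitals mark the single motif match, which lies in Slc38a2.
Slc38a2: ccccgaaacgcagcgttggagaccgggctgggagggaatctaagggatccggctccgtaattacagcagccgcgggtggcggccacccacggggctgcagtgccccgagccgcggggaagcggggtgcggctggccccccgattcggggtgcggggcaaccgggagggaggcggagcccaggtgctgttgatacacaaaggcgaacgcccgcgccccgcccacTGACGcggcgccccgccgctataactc
Slc16a10: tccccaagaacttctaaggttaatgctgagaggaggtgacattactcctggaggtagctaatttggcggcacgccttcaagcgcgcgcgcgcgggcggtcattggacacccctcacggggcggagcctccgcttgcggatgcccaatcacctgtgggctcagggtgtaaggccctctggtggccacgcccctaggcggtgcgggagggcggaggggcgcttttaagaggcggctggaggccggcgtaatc
Slc38a4: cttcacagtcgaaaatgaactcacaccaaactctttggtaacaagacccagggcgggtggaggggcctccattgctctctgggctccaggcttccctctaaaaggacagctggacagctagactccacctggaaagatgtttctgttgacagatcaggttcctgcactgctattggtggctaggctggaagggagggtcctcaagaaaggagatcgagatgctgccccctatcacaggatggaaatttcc
The motifs searched on both strands were TGACGTCA, the full cyclic AMP response element, its shorter part TGACG, which every full element contains, TGATGNAA, a core bound by ATF4 with C/EBP partners, AGAACA, a half-site of the glucocorticoid receptor, TGTTTAC, a FoxO site, and CACGTG, an E-box. In the Slc38a2 sequence TGACG lay 27 to 23 bases before the start, and neither the Slc16a10 sequence nor the printed Slc38a4 sequence held any of the 6 motifs. TGACG was present in 17.8% of 32851 RefSeq promoters cut to the same length, against 1.55% for TGACGTCA, 3.45% for TGATGNAA, 16.1% for AGAACA, 3.17% for TGTTTAC and 6.02% for CACGTG. Promoters were matched for 7 of the 10 genes, 11 sequences in all. Among the others, TGACG also occurred 110 to 106 bases before the second start of Slc38a4 and 46 to 42 bases before the second start of Slc6a9. AGAACA occurred on the opposite strand at 108 to 103 bases before the third start of Slc38a4, and CACGTG at 64 to 59 bases before the start of Slc43a1. The promoters of Slc3a1 and Slc3a2 held none. A match describes letters in these windows only.

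Library totals ranged from 21474255 to 32721828 counts. Hepatocyte markers were abundant in every library, with 7 of 7 listed markers summing to between 71745 and 114277 CPM, and none of them was called at 2 h or 4 h. Markers of bile duct, macrophage, endothelium, stellate and blood cells were present at far lower sums, and 1 cholangiocyte marker at 2 h and 1 endothelial marker at 4 h passed the test. In bulk tissue, fewer cells of a type and less RNA per cell cannot be told apart. At 4 h, replicate 3 of tg stood apart for some of these transporters, being low for Slc38a2 and Slc6a9 and high for Slc3a1. Results that turn on it are given with and without this library. Replicate 1 of wt was the highest wt library at 4 h for Slc7a2 and Slc16a10, by a small margin, and some values are also given without both libraries. The labels give each library as a separate sample with a replicate number. Each title also ends in a further number, which the labels do not explain and which no fit used. Any grouping of the mice that it may reflect was not tested. The p-values set each difference against the spread among these samples. Levels are CPM, counts scaled to a common library total after TMM normalisation, and a gene is said to have risen or fallen where edgeR's quasi-likelihood test gave a Benjamini-Hochberg adjusted p below 0.05 over all 12493 genes.

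Across the set, 2 of 10 genes rose and none fell at 2 h, where 2.16% of all genes tested were called and 1.14% were called higher and 1.02% lower. At 4 h, 3 rose and none fell, beside 11.4% of all genes called and 5.75% called higher and 5.64% lower. In the mean of both durations, 4 rose and none fell, beside 14.2% called and 6.98% called higher and 7.22% lower. The median log2 difference of the 10 genes was 0.25 at 2 h and 0.39 at 4 h, whereas the median over all genes tested was 0.007 and -0.011. The set and the gene lists below were chosen with earlier results of these data known. Their counts and medians beside those of all genes are therefore a description, not a test of the set or lists. The genes that rose were Slc38a2 and Slc38a4 of system A, the latter only in the mean, and the cationic and aromatic carriers Slc7a2 and Slc16a10. Slc38a1, also of system A, passed no test in any of these contrasts. Nor did the heavy chains, the system N carrier, LAT3 or the glycine carrier.

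**Figure D1:**
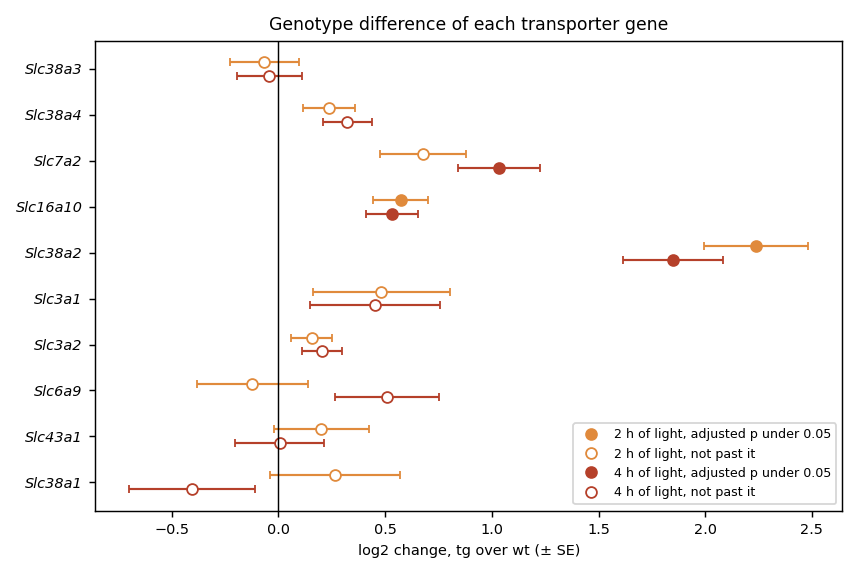
Log2 difference between tg and wt for each of the 10 transporters at 2 h and at 4 h, as points with standard errors. Filled points passed edgeR's quasi-likelihood test. Slc38a2 lies near 2 at both durations, Slc7a2 and Slc16a10 lie between 0.5 and 1.1, and Slc38a3 lies near 0.

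Slc38a2 encodes SNAT2, a sodium-coupled system A carrier of alanine, serine, glutamine and other small neutral amino acids. The gene ENSMUSG00000022462 lies on the minus strand at chr15:96687392-96699730 (GENCODE M21, build GRCm38, as for every gene position below). In the wt livers at 2 h it measured 85.6, 136, 90.1, 110.4 and 99.1 CPM, and in the tg livers 439.8, 462, 511 and 556 CPM. Every tg liver lay above every wt liver, and the lowest tg value was more than 3 times the highest wt value. Its mean level was 104 ± 20.3 CPM in wt (SD, n = 5) and 492 ± 51.9 CPM in tg (SD, n = 4), and the log2 difference was 2.24 ± 0.25 (SE; edgeR adjusted p = 7.36e-05), or 4.72-fold. At 4 h the wt livers gave 89.4, 98.3, 95.3, 79.6 and 123 CPM, and the tg livers 374, 412, 130.4, 420.3 and 415 CPM, in replicate order. The other tg livers formed a tight band, while replicate 3 lay only just above the highest wt liver, so the groups still did not overlap. The log2 difference was 1.85 ± 0.23 (edgeR adjusted p = 7.48e-05), or 3.61-fold, and it was 2.06 without that library. Slc38a2 was called without any 1 library in turn, with log2 differences of 2.17 to 2.35 at 2 h and 1.78 to 2.06 at 4 h.

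**Figure D2:**
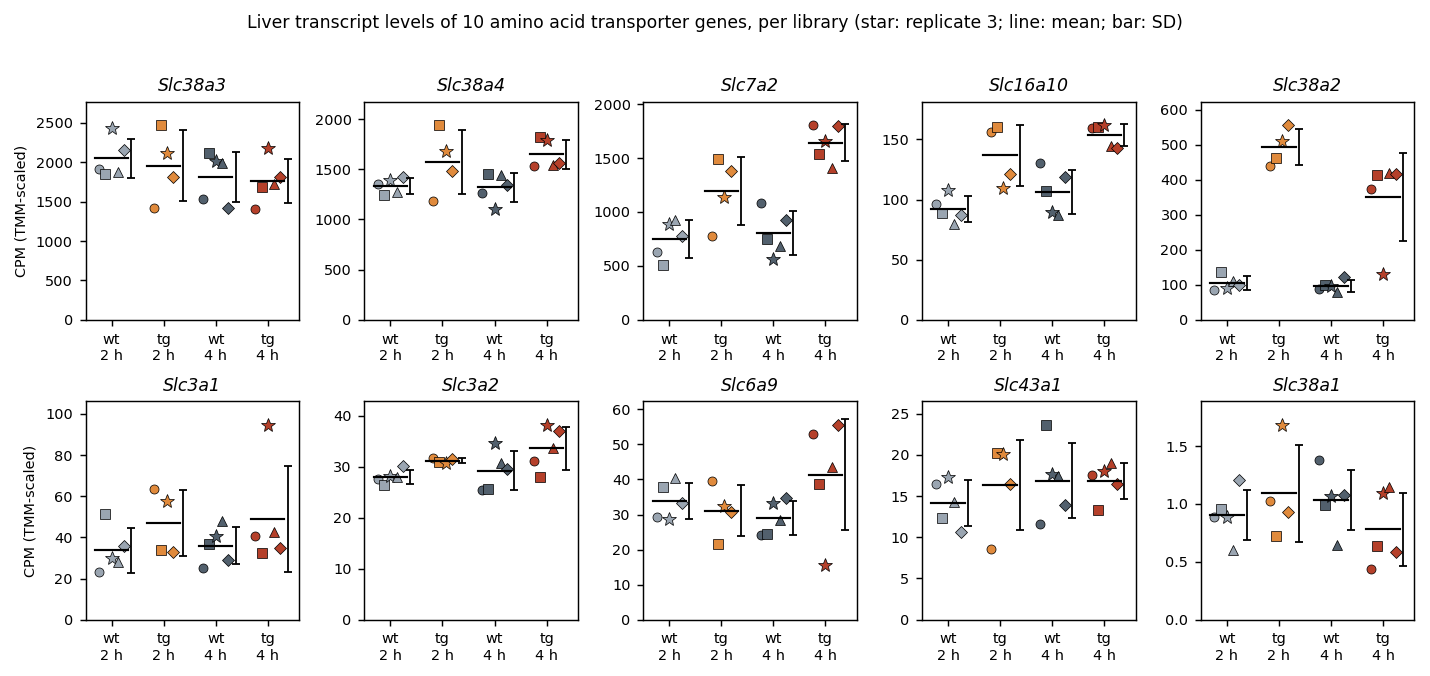
CPM of each transporter in every library, 1 panel per gene with linear axes from 0, by genotype and duration. Lines are group means, bars are SD and a star marks replicate 3 of each group. The genotypes do not overlap at either duration for Slc38a2 and Slc16a10, at 2 h for Slc3a2, or at 4 h for Slc7a2 and Slc38a4. The tg replicate 3 star at 4 h falls to 130.4 CPM for Slc38a2.

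Slc38a4 encodes SNAT4, a system A carrier of neutral amino acids that is enriched in liver, and it lies at chr15:96994820-97055956 on the minus strand. Its wt livers measured 1352, 1241, 1394, 1270.4 and 1426 CPM at 2 h and its tg livers 1188, 1941, 1678 and 1485 CPM. Those ranges overlapped, because the lowest tg liver lay below every wt liver. The log2 difference of 0.23 ± 0.12 did not pass (edgeR adjusted p = 0.495). At 4 h the wt livers gave 1260.0, 1451, 1101, 1447 and 1342 CPM, and the tg livers 1529, 1822, 1791, 1542 and 1565 CPM. All 5 tg livers were above all 5 wt livers, but the log2 difference of 0.32 ± 0.12 had an edgeR adjusted p of 0.0784, and DESeq2 gave 0.0318. In the mean of the durations Slc38a4 rose by 0.28 ± 0.08 on the log2 scale (edgeR adjusted p = 0.0299), and the call was kept in 13 of the 19 fits that left out 1 library. It was lost without tg replicate 2 (adjusted p = 0.076) or 3 (0.0602) at 2 h, wt replicate 2 (0.0546) or 4 (0.0518) at 2 h, tg replicate 2 at 4 h (0.0577) or wt replicate 3 at 4 h (0.0608), and with upper-quartile scaling (0.0502). Without tg replicate 3 and wt replicate 1 at 4 h, the mean difference had an adjusted p of 0.0585. In the authors' deposited table the 4 h log2 change was 0.33 ± 0.10 with an adjusted p of 0.0147.

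Slc38a1 encodes SNAT1, the system A carrier best known from brain, and it lies at chr15:96571418-96642913. It was nearly absent from these livers, with 9 to 45 reads per library and group means of 0.907 ± 0.215 CPM in wt at 2 h, 1.09 ± 0.416 in tg at 2 h, 1.03 ± 0.263 in wt at 4 h and 0.780 ± 0.319 in tg at 4 h. Its ranges overlapped at both durations. The log2 differences were 0.26 ± 0.31 at 2 h (edgeR adjusted p = 0.867) and -0.41 ± 0.29 at 4 h (edgeR adjusted p = 0.423).

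These 3 genes stand next to each other on chromosome 15, all on the minus strand, with 44478 bases between Slc38a1 and Slc38a2 and 295089 bases between Slc38a2 and Slc38a4. Slc38a2 was the single protein-coding gene annotated between the outer pair. The flanking genes passed no test. Arid2 and Scaf11, beyond Slc38a1, had log2 differences of 0.04 and 0.045 at 2 h and 0.20 and -0.01 at 4 h. Amigo2 and Pced1b, beyond Slc38a4, had -0.01 and -0.07 at 2 h and -0.06 and -0.52 at 4 h. The 4 h value of Pced1b had an SE of 0.19 and an edgeR adjusted p of 0.0782.

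Slc38a3 encodes SNAT3, the system N carrier of glutamine, histidine and asparagine in hepatocytes, and it lies at chr9:107650634-107669530 on the minus strand. It was the most abundant of the set, and its level did not separate the genotypes. The wt livers measured 1921, 1851, 2431, 1878 and 2161 CPM at 2 h and the tg livers 1417, 2473, 2120.3 and 1818 CPM, with tg livers at both ends of the range. At 4 h the wt livers measured 1539, 2120.2, 2014, 1991 and 1418 CPM and the tg livers 1403, 1685, 2182, 1725 and 1819 CPM, again fully interleaved. The log2 differences were -0.07 ± 0.16 at 2 h (edgeR adjusted p = 0.954) and -0.04 ± 0.15 at 4 h (edgeR adjusted p = 0.894). These p-values do not show that the genotypes were alike.

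The Slc38 genes differed in share as well as level. Per kilobase of the longest annotated transcript, Slc38a2 made up 1.72 ± 0.452% of the summed Slc38 RNA in wt at 2 h and 7.52 ± 1.51% in tg at 2 h. At 4 h its share was 1.74 ± 0.449% in wt and 5.66 ± 2.15% in tg, where replicate 3 was at 1.82% and the others at 6.33 to 6.83%. Slc38a3 had 64.4 ± 1.87% in wt and 56.1 ± 1.54% in tg at 2 h, and 61.8 ± 4.83% and 53.7 ± 3.92% at 4 h. Slc38a4 had 33.8 ± 1.67% and 36.3 ± 0.289% at 2 h, and 36.4 ± 4.53% and 40.6 ± 2.64% at 4 h. The summed level of the 4 genes was 1007 ± 92.7 and 1102 ± 224 CPM per kilobase at 2 h in wt and tg, and 928 ± 110 and 1036 ± 99.1 at 4 h. Shares of a whole are tied to each other, and they are given as a description with no test.

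**Figure D3:**
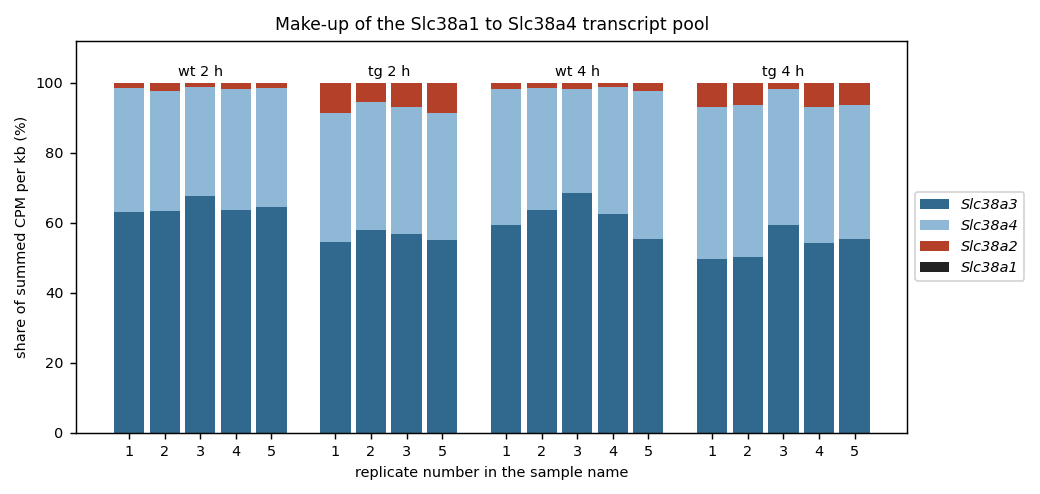
Share of the summed CPM per kilobase of Slc38a1, Slc38a2, Slc38a3 and Slc38a4 held by each gene, in percent, as a stacked bar for every library; Slc38a1 is too small to see. Slc38a2 holds between 6.33% and 6.83% in 4 of the tg libraries at 4 h and 1.82% in replicate 3.

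Slc7a2 encodes CAT-2, a facilitative carrier of arginine, lysine and ornithine, and it lies at chr8:40862396-40922308 on the plus strand. The counts are per gene and do not separate its low-affinity liver isoform from the others. At 2 h the wt livers measured 630.0, 513, 890.3, 929.6 and 777 CPM and the tg livers 782, 1489, 1134 and 1382 CPM. Replicate 1 of tg lay inside the wt range and the others above it, and the log2 difference of 0.68 ± 0.20 did not pass (edgeR adjusted p = 0.0978). It passed without that tg library, at 0.83 (edgeR adjusted p = 0.0358), and with DESeq2 (adjusted p = 0.0309). The authors' deposited table gives 0.68 with an adjusted p of 0.0436. Slc7a2 at 2 h was called in 1 of the 9 fits that left out 1 library, with edgeR adjusted p up to 0.291. It did not pass with the 2 groups fitted alone (0.16), with a replicate block (0.176) or with upper-quartile scaling (0.102). At 4 h the wt livers gave 1083, 751, 563, 685 and 929 CPM, and the tg livers 1806, 1542, 1662, 1410.2 and 1793 CPM. All tg livers, replicate 3 included, lay above all wt livers. Slc7a2 rose from 802 ± 205 CPM to 1643 ± 169 CPM (SD, n = 5 each), a log2 difference of 1.03 ± 0.19 (edgeR adjusted p = 0.00178) or 2.05-fold, with a range of 0.93 to 1.17 when 1 library was left out.

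Slc16a10 encodes TAT1, a facilitative carrier of tryptophan, tyrosine and phenylalanine, and it lies at chr10:40033532-40142258 on the minus strand. At 2 h the wt livers measured 96.1, 89.3, 108, 79.5 and 86.8 CPM and the tg livers 156, 160.1, 109 and 121 CPM. The groups did not overlap, but the lowest tg and highest wt livers nearly met. The log2 difference was 0.57 ± 0.13 (edgeR adjusted p = 0.0195), or 1.49-fold. This call was lost without tg replicate 1 (adjusted p = 0.0814) or 2 (0.0862), without wt replicate 4 (0.0534) or 5 (0.0565), and when the 2 groups at 2 h were fitted alone (0.0521). At 4 h the wt livers gave 130.3, 107, 89.4, 87.3 and 119 CPM, and the tg livers 159, 160.2, 162, 144 and 143 CPM, again without overlap. Slc16a10 rose by 0.53 ± 0.12 on the log2 scale at 4 h (edgeR adjusted p = 0.00743), or 1.44-fold, and it was called without any 1 library in turn, at 0.47 to 0.61.

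Slc43a1 encodes LAT3, a facilitative carrier of leucine and other large neutral amino acids, and it lies at chr2:84838850-84863594 on the plus strand. Its level was 14.2 ± 2.78 CPM in wt and 16.3 ± 5.43 in tg at 2 h, and 16.9 ± 4.56 and 16.9 ± 2.19 at 4 h, with tg values inside or around the wt range. The log2 differences were 0.20 ± 0.22 (edgeR adjusted p = 0.859) and 0.01 ± 0.21 (edgeR adjusted p = 0.991).

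Slc3a2 encodes the 4F2 heavy chain (CD98), the partner of the L-type and y+L light chains, and it lies at chr19:8706882-8723369 on the minus strand. At 2 h the wt livers measured 27.6, 26.3, 28.1, 27.9 and 30.1 CPM and the tg livers 31.8, 31.0, 30.7 and 31.4 CPM. The groups did not overlap, since the lowest tg liver was at 30.7 CPM and the highest wt liver at 30.1 CPM, but the log2 difference of 0.16 ± 0.10 did not pass (edgeR adjusted p = 0.62). The wt livers gave 25.4, 25.6, 34.6, 30.8 and 29.6 CPM at 4 h and the tg livers 31.1, 28.0, 38.2, 33.7 and 37.1 CPM, which overlapped, with a log2 difference of 0.20 ± 0.09 (edgeR adjusted p = 0.166). In the mean of the durations the difference of 0.18 ± 0.07 did not pass (edgeR adjusted p = 0.081), and it passed without tg replicate 2 at 4 h (0.0349) or wt replicate 3 at 4 h (0.0326).

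Slc3a1 encodes rBAT, the heavy chain of the cystine and dibasic amino acid exchanger best known from kidney and intestine, and it lies at chr17:85028376-85064236 on the plus strand. It measured 23.0, 51.5, 29.9, 28.0 and 35.7 CPM in wt and 63.5, 33.6, 57.6 and 32.9 CPM in tg at 2 h. Replicates 1 and 3 of tg lay above all wt livers and the other tg livers inside their range. At 4 h it measured 25.0, 36.8, 40.7, 47.7 and 29.2 CPM in wt and 40.5, 32.2, 94.7, 42.8 and 35.0 CPM in tg, where replicate 3 alone was above the wt range. The log2 differences were 0.48 ± 0.32 (edgeR adjusted p = 0.656) and 0.45 ± 0.30 (edgeR adjusted p = 0.386), and the latter was 0.07 without tg replicate 3. Of 5 kidney tubule markers, 1, Lrp2, had counts here, and it measured 2.65 CPM in that library and 0.440 to 1.47 CPM in the other tg libraries at 4 h. Its part in the Slc3a1 value was not tested.

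Slc6a9 encodes GlyT1, a sodium- and chloride-coupled glycine carrier also expressed in erythroid cells, and it lies at chr4:117834506-117875198 on the plus strand. At 2 h it measured 29.3, 37.8, 28.6, 40.5 and 33.2 CPM in wt and 39.5, 21.7, 32.5 and 30.7 CPM in tg, which overlapped. At 4 h it measured 24.1, 24.6, 33.4, 28.4 and 34.6 CPM in wt and 52.9, 38.8, 15.7, 43.7 and 55.6 CPM in tg. Replicate 3 of tg was below every wt liver, and the other tg livers were above every wt liver. The log2 differences were -0.12 ± 0.26 at 2 h (edgeR adjusted p = 0.946) and 0.51 ± 0.24 at 4 h (edgeR adjusted p = 0.201). Without tg replicate 3 the 4 h value was 0.72 ± 0.16 and passed (edgeR adjusted p = 0.00563), and without wt replicate 1 as well it was 0.66 (adjusted p = 0.0118). Without wt replicate 1 alone it was 0.45 and did not pass (edgeR adjusted p = 0.279). Slc6a9 at 4 h was called in 1 of the 10 fits that left out 1 library, with edgeR adjusted p up to 0.409. Erythroid markers, of which 5 of 6 had counts and none was called, summed to 387 CPM in tg replicate 3 and to 244 to 485 CPM over all tg livers at 4 h, beside 361 to 634 CPM in wt. The sum joins markers that differed in direction. Hba-a1, Hba-a2, Hbb-bs and Hbb-bt averaged 83.9, 94.8, 149.5 and 36.3 CPM in wt at 4 h and 57.4, 68.4, 95.4 and 22.1 CPM in tg. Alas2 averaged 127.6 CPM in wt and 155.9 CPM in tg. The part of these markers in the Slc6a9 value was not tested.

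**Figure D4:**
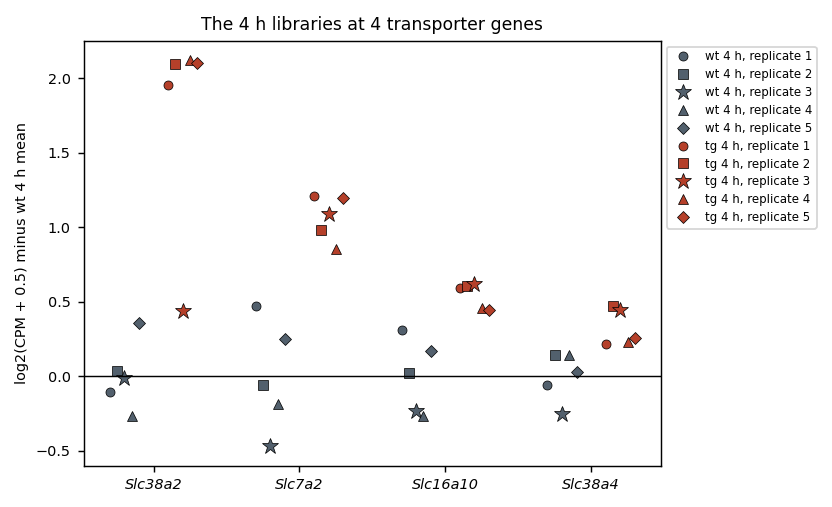
Deviation of each 4 h library from the wt mean at 4 h, on the log2(CPM + 0.5) scale, for Slc38a2, Slc7a2, Slc16a10 and Slc38a4, the transporters called at a duration or in the mean. Replicate 3 of tg (red star) departs from the other tg libraries for Slc38a2 and lies among them for the other genes.

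Ranges that did not overlap, with tg above wt, were seen for 3 transporters at 2 h (Slc38a2, Slc16a10 and Slc3a2), beside 2.91% of all genes, and tg wholly below wt for none, beside 3.09%. At 4 h they were seen for 4 (Slc38a2, Slc38a4, Slc7a2 and Slc16a10), beside 4.27% of all genes, and tg wholly below wt for none, beside 3.91%.

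Whether the genotype difference itself changed between 2 h and 4 h was tested as an interaction. With edgeR no gene of all tested was called, 723 had an unadjusted p below 0.05, and DESeq2 called 6. For Slc38a2 the difference was -0.39 ± 0.33 on the log2 scale (95% interval -1.09 to 0.315; edgeR adjusted p = 0.94), for Slc7a2 0.36 ± 0.28 (-0.24 to 0.95; edgeR adjusted p = 0.931) and for Slc6a9 0.63 ± 0.36 (-0.13 to 1.39; edgeR adjusted p = 0.922). All 3 intervals include 0 and span more than 1 log2 unit. Single libraries weighed on these values. Without tg replicate 3 at 4 h the difference was -0.18 ± 0.19 for Slc38a2 and 0.84 ± 0.23 for Slc6a9, and without tg replicate 1 at 2 h it was 0.20 ± 0.26 for Slc7a2, and none of these passed. Comparing 4 h with 2 h within tg, edgeR called none of the 10 transporters and 0.913% of all genes, 0.264% higher and 0.648% lower, with log2 values from -0.49 for Slc38a2 to 0.46 for Slc7a2. Within wt it called none of all genes tested, where 747 had an unadjusted p below 0.05 and DESeq2 called 1, and the transporters lay between -0.22 and 0.24.

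Levels per kilobase of the longest transcript set the transporters in order over the 10 wt livers of both durations. Slc38a3 was highest at 613 ± 93.2 CPM per kilobase (SD, n = 10), then Slc38a4 at 338 ± 28.2 and Slc7a2 at 98.0 ± 23.0, each apart from its neighbours by more than the spread. Slc16a10 at 18.4 ± 3.00, Slc38a2 at 16.5 ± 2.90 and Slc3a1 at 15.3 ± 4.21 differed by less than the larger SD of each pair, as did Slc3a2 at 10.2 ± 0.989 and Slc6a9 at 9.04 ± 1.55. Slc43a1 followed at 3.96 ± 0.974 and Slc38a1 at 0.134 ± 0.0325. In the 9 tg livers Slc38a2 stood at 67.6 ± 19.6 CPM per kilobase, which placed it between Slc7a2 and Slc16a10.

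Among the genes outside the set whose profile over the 19 libraries was most like that of Slc38a2, by the root mean square difference of centred log2(CPM + 0.5) values, were Tnfrsf1b at 0.376, Arrdc2 at 0.378, Tmem100 at 0.381 and Klf3 at 0.401, where the median over 11133 genes was 1.09. Tnfrsf1b, a receptor for tumour necrosis factor, averaged 31.2 CPM in wt and 97.6 CPM in tg at 2 h, and 29.6 and 69.8 CPM at 4 h, with 34.2 CPM in tg replicate 3 at 4 h. These genes were picked for their likeness over all libraries, replicate 3 included, so a low value there follows from the choice. Klf3, a zinc-finger transcription factor, was at 51.6 CPM there against a tg mean of 104 CPM at 4 h, and Arrdc2, an arrestin-domain protein, was at 6.73 CPM against 42.8 CPM.

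Of 26 other amino acid transporters of the plasma membrane, 13 were tested, none passed at 2 h and 1 rose at 4 h, where 5.75% of all genes were called higher, so the count is near the background. That gene was Slc1a2, a glutamate carrier, with 202 ± 18.98 CPM in wt and 268 ± 28.3 CPM in tg, a log2 difference of 0.41 ± 0.10 (edgeR adjusted p = 0.0119). The list's median log2 difference was -0.03 at 2 h and 0.15 at 4 h. Light chains that pair with Slc3a2 were scarce. Slc7a5 averaged 2.33 and 2.49 CPM in wt and tg at 4 h and Slc7a8 3.31 and 2.59 CPM, and neither passed.

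Of 8 lysosomal amino acid transporters, 6 were tested, none passed at 2 h and 2 fell at 4 h, where 5.64% of all genes were called lower, with list medians of -0.13 and -0.15. Slc36a1, a proton-coupled carrier of small amino acids out of the lysosome, fell from 29.1 ± 6.21 to 14.8 ± 2.17 CPM, a log2 difference of -0.98 ± 0.13 (edgeR adjusted p = 0.000122). Slc38a7, a lysosomal exporter of glutamine and asparagine, fell from 20.1 ± 3.06 to 14.9 ± 2.00 CPM, a log2 difference of -0.43 ± 0.12 (edgeR adjusted p = 0.0186).

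Slc38a2 is a known target of ATF4, the transcription factor of the amino acid response, and 19 of 20 genes listed for that response were tested. At 2 h 1 rose and none fell, beside 2.16% of all genes called, and at 4 h 3 rose and 1 fell, beside 11.4%. The list medians were 0.01 and 0.03. Atf4 itself had log2 differences of 0.19 and 0.16 and passed at neither duration. Sesn2, a stress-induced regulator of mTORC1, rose at 4 h from 7.85 to 13.4 CPM, a log2 difference of 0.77 ± 0.14. Asns, asparagine synthetase, rose at 4 h from 3.67 ± 1.78 to 11.7 ± 4.93 CPM, a log2 difference of 1.67 ± 0.43. At 2 h Asns was at 7.26 CPM in wt and 6.92 CPM in tg. In the mean of the durations its difference of 0.80 ± 0.31 did not pass (edgeR adjusted p = 0.0992). Trib3, a pseudokinase that ATF4 induces, fell at 4 h by 1.38 ± 0.32 on the log2 scale. Cebpb, a bZIP factor of the liver's response to fasting hormones, rose at both durations, by 1.28 ± 0.26 at 2 h.

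All 24 genes listed for amino acid metabolism were tested. Not all of them act directly on an amino acid that these transporters carry. At 2 h 2 rose and none fell, where 1.14% of all genes were called higher, and at 4 h 12 rose and none fell, where 5.75% were. In the mean of the durations 12 rose and 1 fell, beside 6.98% called higher and 7.22% lower. The gene that fell was Bcat2, the mitochondrial branched-chain aminotransferase, at -0.51 ± 0.13 (edgeR adjusted p = 0.0107). The medians were 0.29 at 2 h, 0.49 at 4 h and 0.40 in the mean. Sds, serine dehydratase, rose by 1.76 ± 0.21 on the log2 scale at 4 h, Tat, tyrosine aminotransferase, by 2.35 ± 0.30, and Tdo2, tryptophan dioxygenase, by 0.94 ± 0.16. The substrates of Tat and Tdo2 are among those that Slc16a10 carries.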

How the data were processed

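Poly-A selected, stranded libraries of 19 mouse livers were sequenced, per the labels' protocols. Salmon 1.4.0, STAR, DESeq2 1.30.0 and build GRCm38.p6 are named, with no role, per the submitters' processing notes. The gene counts, whole numbers, are as the authors deposited them. Their 2 comparison tables hold means of normalised counts (a signal), log2 fold changes with standard errors, a Wald score and p-values, all as deposited by the authors. The step from transcripts to counts is not given in the sources, and genes with near-identical copies are uncertain to an unmeasured degree.

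Of 14576 genes, 257 were blank in every 4 h library (highest mean count at 2 h 5.11) and were dropped. edgeR 4.0.16 in R 4.3.3 filtered the other 14319 (minimum count 10, minimum total 15) to 12493, scaled by TMM, and fitted 1 mean per group to all libraries, with 15 residual degrees of freedom and a biological coefficient of variation of 0.183. Contrasts used the quasi-likelihood test of edgeR, with p-values adjusted by Benjamini-Hochberg at 0.05. Scripts were tested on simulated data. DESeq2 1.42.0 was an alternative, as were other scalings and filters, limma 3.58.1, 2-group fits, a replicate block and leaving out each library. Leaving out tg replicate 3 and wt replicate 1 at 4 h together was chosen after seeing the data. Among 171 pairs of libraries, chi-square per degree of freedom was at least 20.1, and every library was counted as its own sample. Figures were drawn with matplotlib 3.10.9.

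The transporters and the lists were chosen with earlier results of these data known. Named from each list were up to 3 genes with the smallest p among those called at 4 h, and the 5 genes most like Slc38a2, of which 1 is not reported here. Slc7a5, Slc7a8, Atf4, Cebpb, Bcat2 and the neighbours on chromosome 15 were named outside that rule, after their values were seen. Shares and orders used the longest annotated transcript.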

Additional observations from a re-analysis of the deposited data

Results flagged for a closer look

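Of 40 groups of libraries, 4 for each transporter, 2 held a library far from the others by Dixon's test at 95%. Chance gives about 1 such group in 20. Both were replicate 3 of tg at 4 h. Slc38a2 measured 130.4 CPM there, below the other tg libraries at 374 to 420.3 CPM, with a gap of 0.840 of the group's range. Slc3a1 measured 94.7 CPM there, above the others at 32.2 to 42.8 CPM, with a gap of 0.831 of the range. The critical value for 5 libraries is 0.71.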

How the results depend on the processing

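Of 978 alternative values, 902 were classed as the same, 13 lost a call, 8 gained one, 16 changed sign and 39 moved. A gene's value was classed as the same if it kept its direction and its side of the threshold. A count of called genes could change by a limited factor and still be so classed. The transporters called at 2 h, 2 with edgeR and 3 with DESeq2, are such a case. No transporter that was called changed sign. Slc43a1 at 4 h, near 0, was -0.03 with upper-quartile scaling and -0.13 without tg replicate 3 and wt replicate 1 at 4 h, where Slc3a1 was -0.037. DESeq2 called 425 genes at 2 h, 288 for 4 h against 2 h in tg, 1 in wt and 6 for the difference. Fitting the 2 groups at 2 h alone left 1 transporter called. Without those 2 libraries, 187 genes were called for 4 h against 2 h in tg, 1 in wt and 1 for the difference. Shares from CPM without length, in the order wt 2 h, tg 2 h, wt 4 h, tg 4 h, were 0.0259%, 0.0279%, 0.0328% and 0.0205% for Slc38a1, 3.03%, 12.5%, 3.05% and 9.46% for Slc38a2, 58.6%, 48.4%, 55.9% and 46.6% for Slc38a3, and 38.4%, 39.1%, 41.0% and 43.9% for Slc38a4. These moved because transcript length was left out; the cause of the other changes was not tested. Leaving out 1 library gave 1 to 2 transporters called at 2 h, and over all genes 151 to 244 at 2 h, 895 to 1887 at 4 h, 20 to 134 for 4 h against 2 h in tg, 0 to 1 in wt and 0 to 3 for the difference. It changed the sign of uncalled values, over ranges of -0.025 to 0.417 for Slc38a1 at 2 h and -0.22 to 0.005 in the mean, -0.198 to 0.061 for Slc38a3 at 2 h, -0.132 to 0.029 at 4 h and -0.12 to 0.009 in the mean, -0.10 to 0.16 for Slc43a1 at 4 h, and -0.26 to 0.015 for Slc6a9 at 2 h. Pairs of tg and wt libraries with the same replicate number had correlations from -0.375 to 0.204, with 4 of 9 pairs over 0.1. Pairs with different numbers ranged from -0.406 to 0.333. No pairing by number was visible, but so few pairs cannot exclude it. With the replicate number as a block, 2 transporters were called at 2 h, 3 at 4 h and 5 in the mean. Slc3a2 was the one added in the mean (0.18, edgeR adjusted p = 0.0461). Over all genes 276, 1427 and 1750 were called. Depth limits Slc38a1 most, at 9 to 45 reads per library.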
